A study of Mus musculus with 12 samples.

Results

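The genes described here make cholesterol and fatty acids: 18 enzymes of the sterol branch, 8 enzymes of the fatty acid branch, and 4 genes that regulate these branches or carry sterols. They were chosen by name from what is known of the pathways, but with earlier results of these data known. Of the 30 genes in all, 29 had a row in the deposited table of 26061 genes. Hmgcs1, the synthase that makes HMG-CoA, was not analysed here. Expression was measured by RNA sequencing in E14 cells, a mouse embryonic stem cell line of the 129/Ola background that was kept here on gelatin with no feeder cells. Of the 4 groups of 3 libraries, 2 carried a lentiviral pLKO.1 shRNA against Setdb1, which encodes a histone methyltransferase: 2i knockdown cells and serum knockdown cells. The other two groups, 2i control cells and serum control cells, carried the scrambled shRNA shScr. The 2i medium, whose cells the submitters call naive, held LIF, the supplements N2 and B27, CHIR99021, which inhibits GSK3, and PD0325901, which inhibits MEK. The serum medium, whose cells are called primed, held LIF and 15% fetal bovine serum. All groups were transduced, put under 1 µg/ml puromycin from 48 hours after infection and harvested once 3 days under the drug had passed. Only 1 shRNA against Setdb1 is named and no rescue, so effects of Setdb1 loss and other effects of that shRNA cannot be told apart. Nothing in the labels says that the replicates are independent cultures. The spread that p-values are measured against may therefore be technical.

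The sterol branch joins acetyl-CoA units through mevalonate to isoprenoid units, condenses these to squalene and closes and trims the ring to give cholesterol. The fatty acid branch turns citrate-derived acetyl-CoA into malonyl-CoA and palmitate, which elongases and desaturases then lengthen and unsaturate. Both branches are classic targets of the membrane-bound SREBP transcription factors. Srebf2 encodes SREBP2, best known for sterol enzymes, and Srebf1 encodes SREBP1, best known for fatty acid enzymes, while Insig1 holds the SREBPs in the endoplasmic reticulum when sterols are plentiful.

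Promoter windows from RefSeq on build GRCm38.p6, reaching from 250 bases before to 50 bases after a gene's start, were found for 23 of the 30 members; Scd1, Scd2, Fads1, Fdft1, Fdps, Sqle and Stard4 are the others. The 22 of the 23 with expression values have 27 windows. The letters TCACNCCAC, a common form of the sterol regulatory element, were in 0 of the 27 windows on either strand, against 1.24% of all 32851 windows. The window of Hmgcs1, which has no expression values here and is not among the 27, held them 1 time. The letters CCAAT, bound by the NF-Y factor that works beside SREBPs, were in 19 of 27 windows (70.4%) on either strand, against 37.4% of all windows. The GC box GGGCGG, bound by Sp1, was in 20 of 27 windows (74.1%), against 35.7% of all windows. The letters CCAAT were in 13 of 17 sterol enzyme windows (76.5%) and in 2 of 5 fatty acid enzyme windows (40.0%), those of Acly, Acaca, Fasn, Elovl6 and Fads2, so that 1 of the 4 desaturases is among them. CCAAT and GC box matches overlapped 0 times, and a pair of Dhcr7 windows overlap each other. A match is a description of letters and not a binding site.

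Windows of 4 members are shown, because Idi1 was the member that rose with the knockdown, Fads2 rose in 2i, Insig1 encodes the protein that holds the SREBPs back, and Nsdhl held 4 CCAAT matches. Mvk held 5 such matches and Hmgcs1 held 4, and their windows are not shown. Each is written 5′ to 3′ on the gene's strand, with CCAAT or its reverse complement ATTGG in capitals.
Idi1, chr13:8885356-8885655, plus strand: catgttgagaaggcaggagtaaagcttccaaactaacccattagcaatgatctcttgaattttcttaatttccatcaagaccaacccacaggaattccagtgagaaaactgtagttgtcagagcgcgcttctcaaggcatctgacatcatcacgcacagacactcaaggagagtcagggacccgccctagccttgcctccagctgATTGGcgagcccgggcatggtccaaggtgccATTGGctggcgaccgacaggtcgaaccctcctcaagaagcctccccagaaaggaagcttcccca
Nsdhl, chrX:72918271-72918570, plus strand: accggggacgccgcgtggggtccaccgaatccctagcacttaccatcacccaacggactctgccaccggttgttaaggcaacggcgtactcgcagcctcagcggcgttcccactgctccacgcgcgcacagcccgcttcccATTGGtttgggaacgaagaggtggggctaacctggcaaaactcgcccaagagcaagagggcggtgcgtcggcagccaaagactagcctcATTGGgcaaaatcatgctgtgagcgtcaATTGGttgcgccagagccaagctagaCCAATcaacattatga
Insig1, chr5:28071162-28071461, plus strand: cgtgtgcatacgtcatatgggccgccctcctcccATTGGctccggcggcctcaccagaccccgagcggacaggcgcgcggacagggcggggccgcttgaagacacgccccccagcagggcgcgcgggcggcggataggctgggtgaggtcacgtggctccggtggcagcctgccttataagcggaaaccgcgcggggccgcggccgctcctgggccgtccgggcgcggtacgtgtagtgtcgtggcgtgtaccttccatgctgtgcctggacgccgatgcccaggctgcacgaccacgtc
Fads2, chr19:10101454-10101753, minus strand: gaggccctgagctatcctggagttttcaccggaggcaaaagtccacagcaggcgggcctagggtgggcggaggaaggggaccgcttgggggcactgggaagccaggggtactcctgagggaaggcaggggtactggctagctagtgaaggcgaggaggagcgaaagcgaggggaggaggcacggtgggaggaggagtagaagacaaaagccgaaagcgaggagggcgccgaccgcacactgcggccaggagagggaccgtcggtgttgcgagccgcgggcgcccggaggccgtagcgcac
Both CCAAT matches of Idi1 lie on the reverse strand, starting 45 and 14 bases before the gene's start. The Fads2 window held 0 CCAAT matches and 1 GC box. No match says only that these letters are not in this window.

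The libraries held 4821181 (2i knockdown 3) to 15509401 (2i control 1) gene reads, recovered from the deposited log2-scale values as whole reads; levels below are normalised reads, that is, recovered reads divided by the library's size factor. Setdb1 held 837, 610.2 and 340.1 normalised reads in 2i knockdown cells, against 3607, 2724 and 2254 in 2i control cells (log2 difference -2.24, SE 0.33, adjusted p = 0.00173). In serum it held 418, 379 and 409 normalised reads in knockdown cells, against 2959, 2237 and 1587 in control cells (log2 difference -2.33, SE 0.33, adjusted p = 0.00219). Neither pair of groups overlapped. All 10 pluripotency markers, Pou5f1 and Nanog among them, passed the filter, with summed normalised reads of 43434 to 71262 in 2i knockdown, 45406 to 67278 in 2i control, 50005 to 82577 in serum knockdown and 60274 to 75158 in serum control cells, while the liver markers Alb, Ttr and Serpina1a were at 0 in all 12 libraries. Structural RNA such as ribosomal RNA took 19.7 to 69.3% of repeat reads in 2i knockdown, 31.8 to 64.3% in 2i control, 15.3 to 42.4% in serum knockdown and 24.0 to 48.0% in serum control cells, and replicate 3 had the highest share in each group. In bulk RNA, fewer cells expressing a gene and less RNA per cell cannot be told apart.

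**Figure D1:**
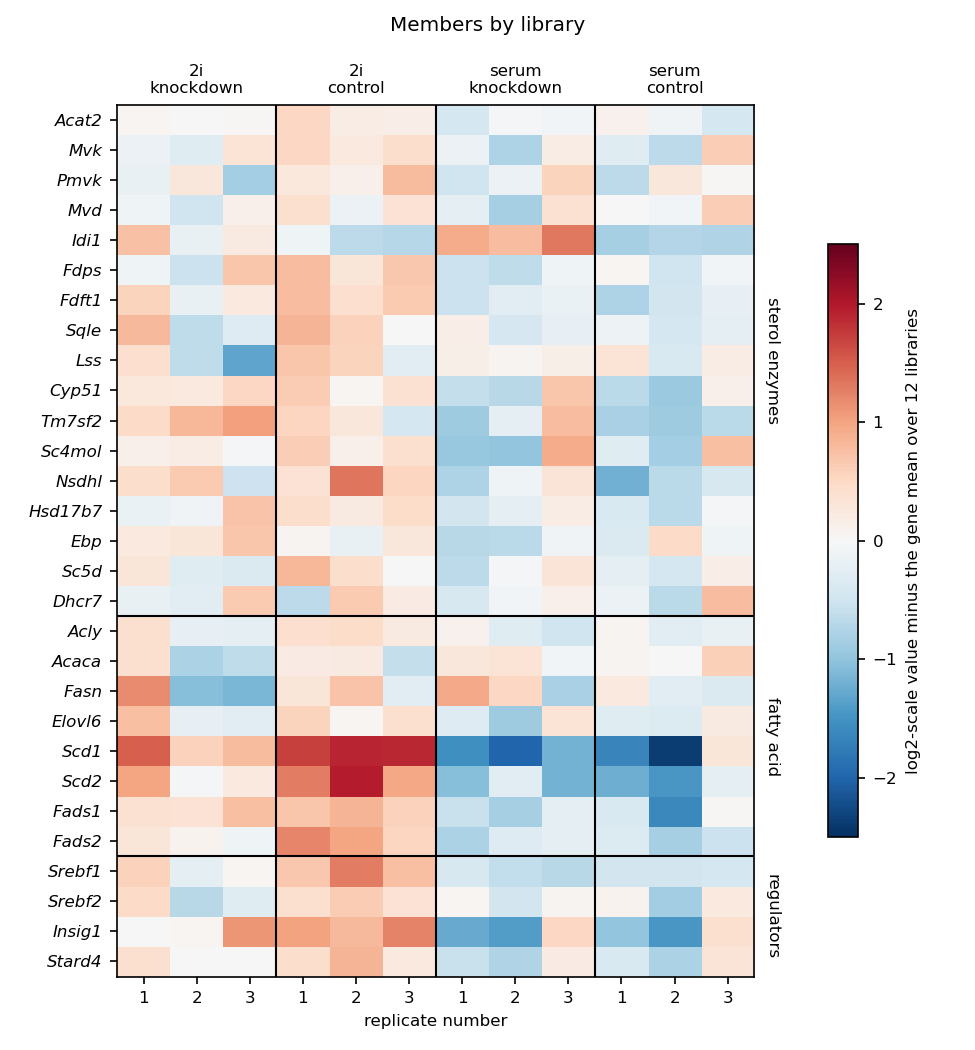
Heat map of the 29 members (rows, by branch) in the 12 libraries (columns, by group and replicate number); colour gives the log2-scale value minus the gene's mean over the 12 libraries. Scd1 is high in the 2i libraries, and Scd2 in those of 2i control cells and in 2i knockdown 1. Idi1 is high in the knockdown libraries of serum, and replicate 3 of serum stands above replicates 1 and 2 for many sterol enzymes.

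In control cells, 6 of the 29 members were higher in 2i than in serum: Scd1, Scd2, Fads1, Fads2, Srebf1 and Fdft1. All 29 were tested, and 6 rose and 0 fell at an adjusted p under 0.05 (limma on the deposited values, Benjamini-Hochberg over 14487 genes), against 1.73% of all tested genes called higher. The log2 difference was above 0 for 28 of 29 members, with a median of 0.65, against -0.05 over all tested genes. The 2i and serum libraries did not overlap, with 2i higher, for 16 members, against 11.0% of all tested genes. The fatty acid branch gave 4 of the 6 calls, Srebf1 and the sterol enzyme Fdft1 the others. Of 8 markers of the naive state, 7 were tested, and their summed normalised reads were 9094 to 13399 in 2i control cells and 6909.9 to 9568 in serum control cells. By limma and by voom, 0 of the 7 passed, with 2 higher at an unadjusted p under 0.05. Sums of 7 primed epiblast markers were 1290 to 2169 in 2i control and 1136 to 5154 in serum control cells. Of 6 tested, 1 rose by limma and 0 passed by voom, with 1 higher and 1 lower at an unadjusted p under 0.05 by each. Of 7 tested endoderm markers, 0 passed by limma and 1 by voom, with 4 lower at an unadjusted p under 0.05 by each. The naive and primed sums overlapped, as did the structural RNA shares given above. The part of any of these in the members' values was not tested.

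The stearoyl-CoA desaturases, which make oleate and palmitoleate from saturated chains, had the highest log2 differences of the members. Scd1 held 2843, 3296 and 3260.5 normalised reads in 2i control cells, against 242, 132 and 1058 in serum control cells. The 2i libraries all lay above the serum ones, and serum control 3 stood well above the other two. The mean was 6.56-fold higher in 2i (log2 difference 3.07, SE 0.50, adjusted p = 0.004), and 16.8-fold higher without serum control 3. Scd2, the desaturase best known from brain and embryo, held 7908, 12720.3 and 6309.7 normalised reads in 2i control cells, against 1360.2, 1141 and 2761 in serum control cells. Here too the groups did not overlap, and the mean was 5.12-fold higher in 2i (log2 difference 2.37, SE 0.40, adjusted p = 0.00483). These paralogues are similar in sequence, and how reads shared between copies were counted is not given in the sources used here.

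The fatty acid desaturases Fads1 and Fads2, which act on polyunsaturated chains, also rose in 2i. Fads2 held 270.1, 223 and 153 normalised reads in 2i control cells, against 66.2, 37.3 and 53.5 in serum control cells, a 4.11-fold higher mean without overlap (log2 difference 1.49, SE 0.31, adjusted p = 0.0155). Fads1 held 898, 1009 and 818 normalised reads in 2i control cells, against 404, 149 and 546 in serum control cells. Its groups did not overlap either, although serum control 2 stood far below the other serum libraries, and the mean was 2.48-fold higher in 2i (log2 difference 1.36, SE 0.36, adjusted p = 0.0473). Fads2 missed the threshold without serum control 2, 2i control 1 or 2i control 2 (adjusted p = 0.0799, 0.0651 and 0.0623). Fads1 missed it without any 1 of the control libraries other than serum control 3, with adjusted p of 0.0868 to 0.180.

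The other 4 fatty acid enzymes did not pass in control cells. Acly, which splits citrate into acetyl-CoA, held 5593, 5687 and 4831 normalised reads in 2i control cells, against 4348, 3468 and 3646 in serum control cells, groups that did not overlap (log2 difference 0.49, SE 0.29, adjusted p = 0.417). Acaca, the acetyl-CoA carboxylase, was the member with a log2 difference below 0 (-0.28, adjusted p = 0.761). Fasn, the fatty acid synthase, held 1779, 2397 and 1176 normalised reads in 2i control cells, against 1715, 1193 and 1104 in serum control cells, with overlap (log2 difference 0.37, SE 0.56, adjusted p = 0.810). The elongase Elovl6 had a log2 difference of 0.48 (adjusted p = 0.555). The branch thus split: the 4 desaturases passed, with log2 differences of 1.36 to 3.07, and the other 4 genes did not, with -0.28 to 0.49.

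Among the regulators, Srebf1 held 433, 678 and 459 normalised reads in 2i control cells, against 175, 176 and 179.6 in serum control cells. The serum libraries lay within a few reads of each other and all below the 2i libraries, and the mean was 2.96-fold higher in 2i (log2 difference 1.35, SE 0.29, adjusted p = 0.0183). The call was lost without serum control 1, serum control 2, 2i control 2 or 2i control 3 (adjusted p = 0.0635, 0.0695, 0.0914 and 0.0579). Insig1 held 2172, 1882 and 2545 normalised reads in 2i control cells, against 517, 357 and 1405 in serum control cells. All 2i libraries were above the serum ones, but serum control 3 stood apart, and the difference missed the threshold (log2 difference 1.70, SE 0.52, adjusted p = 0.0861). Without serum control 3 it passed, with a 5.03-fold higher mean in 2i in place of 2.90-fold (log2 difference 2.23, adjusted p = 0.0317). Srebf2 held 720.0, 862 and 699.5 normalised reads in 2i control cells, against 569.9, 274 and 646 in serum control cells, which did not overlap (log2 difference 0.65, SE 0.35, adjusted p = 0.379). Stard4, a carrier that moves cholesterol between membranes, had a log2 difference of 0.79 (adjusted p = 0.240).

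**Figure D2:**
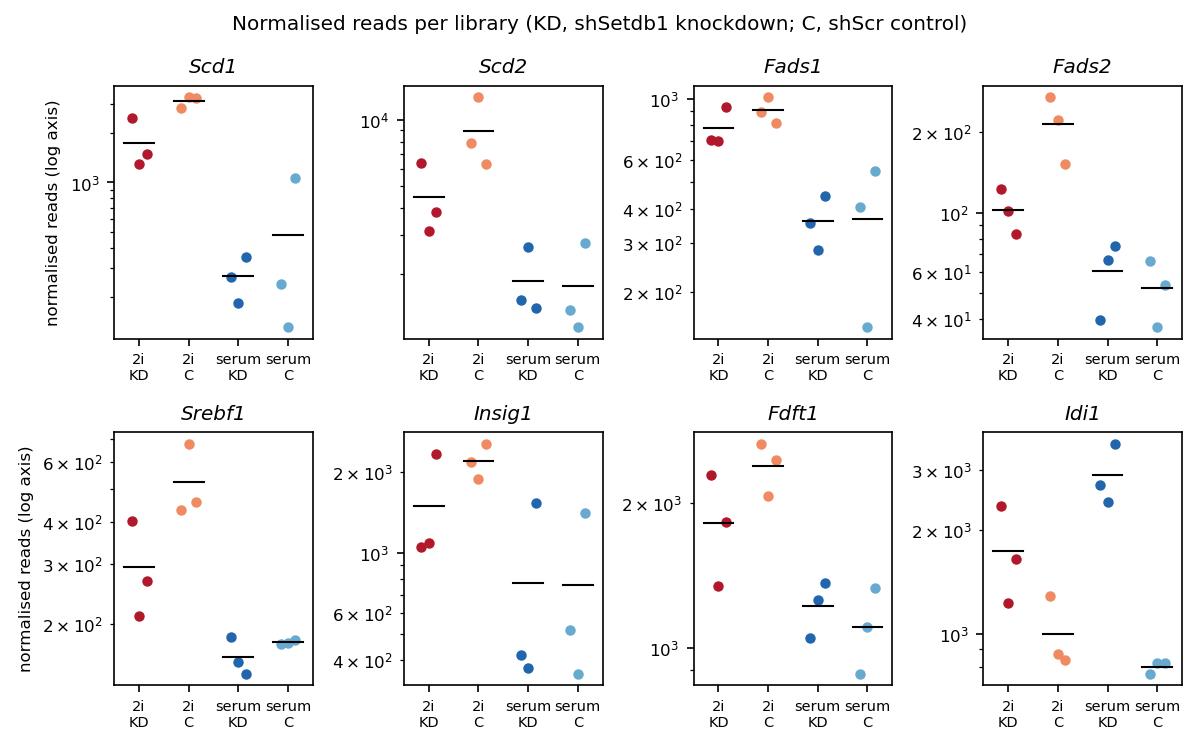
Normalised reads (log axis) of 8 members in the 12 libraries; points are libraries, horizontal lines are group means, KD is the shSetdb1 knockdown and C the shScr control. Scd1, Scd2, Fads1 and Srebf1 have their 2i libraries above their serum libraries in both knockdown and control cells, and Idi1 has its highest values in serum knockdown cells.

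All 17 sterol enzymes had a log2 difference above 0 between 2i and serum control cells, with a median of 0.51, and 1 passed the test. For 8 of them the 2i and serum libraries did not overlap. The one that passed was Fdft1, the squalene synthase that commits isoprenoids to sterols, with 2658, 2072 and 2461 normalised reads in 2i control cells, against 885, 1103 and 1332 in serum control cells (log2 difference 1.10, SE 0.27, adjusted p = 0.0382). The call was lost without any 1 of the control libraries other than serum control 3 (adjusted p of 0.0746 to 0.161). Nsdhl, a dehydrogenase that helps to remove the methyl groups of the ring, had a mean 3.67-fold higher in 2i and just missed the threshold (log2 difference 1.51, SE 0.40, adjusted p = 0.0511).

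Neither end of the branch passed. Acat2, the thiolase that starts the branch, held 838, 655 and 649 normalised reads in 2i control cells, against 622, 533 and 409.5 in serum control cells, without overlap (log2 difference 0.43, SE 0.26, adjusted p = 0.428). Dhcr7, the reductase of the last step, held 39.7, 149.7 and 98.6 normalised reads in 2i control cells, against 69.5, 38.2 and 165 in serum control cells, with wide overlap (log2 difference 0.09, SE 0.43, adjusted p = 0.954). Its ratio of means, 1.06, became 1.78 without serum control 3. Sqle, the squalene epoxidase and a rate-limiting step, held 1512, 1246 and 828 normalised reads in 2i control cells, against 747, 594 and 684 in serum control cells, without overlap (log2 difference 0.75, SE 0.35, adjusted p = 0.290). Idi1, which isomerises the isoprenoid units, had 1289.8, 874 and 838 normalised reads in 2i control cells, against 765, 821 and 819 in serum control cells (log2 difference 0.28, SE 0.29, adjusted p = 0.697). The other 11 sterol enzymes had log2 differences of 0.02 to 0.91, none of them called. In the mevalonate steps these were 0.51 for the kinase Mvk, 0.50 for the kinase Pmvk and 0.02 for the decarboxylase Mvd. Fdps, which joins the isoprenoid units, had 0.76, and Lss, which closes the ring, had 0.28. Among the enzymes that trim the ring, the value was 0.85 for the demethylase Cyp51, 0.91 for the reductase Tm7sf2, 0.51 for the oxidase Sc4mol and 0.73 for the reductase Hsd17b7. The isomerase Ebp had 0.05 and the desaturase Sc5d had 0.58.

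In knockdown cells, 1 member passed between media. Scd1 was higher in 2i and 0 members were called lower, against 2.15% of all tested genes called higher. The log2 difference was above 0 for 23 of 29 members, with a median of 0.38 against -0.05 over all tested genes. The groups did not overlap for 7 members with 2i higher, against 8.99% of all tested genes, and for Idi1 with 2i lower, against 10.1%. This comparison and the one in control cells share no library, though the fit gives both the same estimate of spread. Naive marker sums were 5879 to 9118 normalised reads in 2i knockdown cells and 4229 to 4761 in serum knockdown cells, without overlap, and 1 of 7 tested markers rose. Sums of 7 primed epiblast markers were 1054 to 4429 in 2i knockdown cells and 1829 to 11535 in serum knockdown cells, and 1 of 6 tested markers fell by limma and 0 by voom (3 lower at an unadjusted p under 0.05 by each). Of 10 tested pluripotency markers, 1 fell by limma and 0 by voom, with 1 higher and 2 lower at an unadjusted p under 0.05 by each. Fibroblast marker sums were 130 to 802 in 2i knockdown cells and 76.8 to 107 in serum knockdown cells, and 1 of 3 tested markers rose. The part of these in the members' values was not tested.

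Scd1 held 2466, 1289 and 1490.5 normalised reads in 2i knockdown cells, against 267, 184 and 352 in serum knockdown cells, a 6.53-fold higher mean (log2 difference 2.51, SE 0.50, adjusted p = 0.0119). No 2i library came near a serum one, although the call was lost without serum knockdown 2 (adjusted p = 0.0818). Scd2 held 6403, 3143 and 3811 normalised reads in 2i knockdown cells, against 1512, 2655 and 1391 in serum knockdown cells, without overlap (log2 difference 1.24, SE 0.40, adjusted p = 0.108). Fads1 had 710.2, 702 and 929 normalised reads in 2i knockdown cells, against 354, 284 and 446 in serum knockdown cells (log2 difference 1.04, SE 0.36, adjusted p = 0.129). Fads2 had 123, 102 and 83.0 normalised reads in 2i knockdown cells, against 39.5, 66.5 and 74.8 in serum knockdown cells (log2 difference 0.54, SE 0.31, adjusted p = 0.386). Each of these pairs was free of overlap, yet Scd1 was the desaturase that passed.

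Srebf1 held 401, 211 and 268 normalised reads in 2i knockdown cells, against 183, 155 and 143 in serum knockdown cells, again without overlap (log2 difference 0.70, SE 0.29, adjusted p = 0.208). Insig1 held 1057, 1094 and 2328 normalised reads in 2i knockdown cells, against 417, 376 and 1533 in serum knockdown cells, where serum knockdown 3 lay above 2 of the 2i libraries (log2 difference 1.10, SE 0.52, adjusted p = 0.273; 1.93-fold, and 3.77-fold without serum knockdown 3). Srebf2 had a log2 difference of -0.06 (adjusted p = 0.949). Idi1, with 2353, 1227 and 1648 normalised reads in 2i knockdown cells, against 2702, 2420.4 and 3569.5 in serum knockdown cells, was the member whose 2i libraries all lay below serum (log2 difference -0.75, SE 0.29, adjusted p = 0.179). Without 2i knockdown 1 that difference passed (log2 difference -0.98, adjusted p = 0.0467). The 17 sterol enzymes had a median of 0.21 and 0 calls by limma or voom, a related test on the recovered reads. At an unadjusted p under 0.05, either tool gave 3 of them, 2 higher and 1 lower. The share of all tested genes at such a p was 18.52% by limma and 15.21% by voom. The 8 fatty acid enzymes had a median of 0.46 and 1 call.

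**Figure D3:**
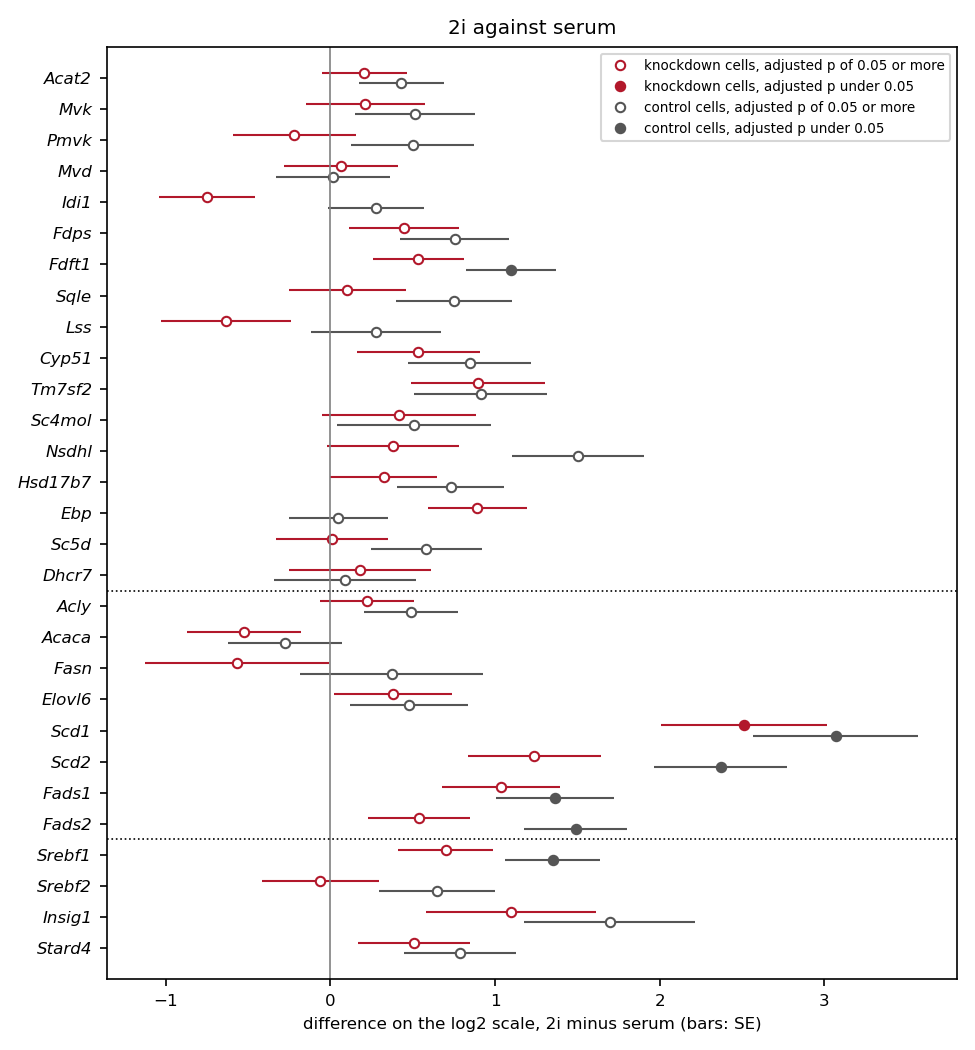
Difference between 2i and serum on the log2 scale (x axis; bars are SE) for the 29 members (rows, branches parted by dotted lines), in knockdown and control cells; filled points passed at an adjusted p under 0.05. The desaturases and Srebf1 lie to the right of most sterol enzymes, and for 26 of the 29 members the control-cell point lies to the right of the knockdown-cell point.

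In serum, 1 of the 29 members passed for the knockdown. Idi1 rose, and the other 28 did not pass, against 0.649% of all tested genes called in either direction (94 genes; 171 with the replicate number as a block and 211 with a block within each medium). Idi1 held 2702, 2420.4 and 3569.5 normalised reads in serum knockdown cells, against 765, 821 and 819 in serum control cells. Its mean was 2897 ± 599 in serum knockdown cells and 802 ± 31.6 in serum control cells (normalised reads, SD, n = 3 each), a 3.61-fold rise with no overlap (log2 difference 1.78, SE 0.29, adjusted p = 0.00754). Knockdown libraries that all lay above the controls occurred in 6.12% of all tested genes and, among the members, for Idi1 alone. With the replicate number as a block Idi1 passed too (limma adjusted p = 0.000832, and 0.000504 with a block within each medium). In fits with no block, the call was lost without serum control 1 (log2 difference 1.75, adjusted p = 0.0529) and without replicate 3 of every group (1.64, adjusted p = 0.0965). Naive marker sums were 4229 to 4761 normalised reads in serum knockdown cells and 6909.9 to 9568 in serum control cells, without overlap. Primed epiblast marker sums were 1829 to 11535 in serum knockdown cells and 1136 to 5154 in serum control cells, with overlap. By limma and by voom, 0 markers of either kind passed. At an unadjusted p under 0.05, each tool gave all 7 tested naive markers lower and 0 of the 6 primed ones. Of 10 tested pluripotency markers, each tool gave 2 lower at such a p, and 0 passed. The part of any of these in the value of Idi1 was not tested. Idi1 has a paralogue, Idi2, and how reads shared between similar copies were counted is not given in the sources used here.

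The steps next to Idi1 in the pathway did not pass. Mvd, the step before it, had a log2 difference of -0.42, and Fdps had -0.26 (adjusted p = 1 for both). Scd1 held 267, 184 and 352 normalised reads in serum knockdown cells, against 242, 132 and 1058 in serum control cells (log2 difference -0.32, SE 0.50, adjusted p = 1). Its knockdown mean was 0.561 of the control mean, and 1.43-fold the control mean without serum control 3. Insig1 held 417, 376 and 1533 normalised reads in serum knockdown cells, against 517, 357 and 1405 in serum control cells, with replicate 3 the highest of each group (log2 difference -0.03, SE 0.52, adjusted p = 1). The ratio of its means, 1.02, became 0.522 without serum knockdown 3 and 1.77 without serum control 3. Of the members, 15 had a log2 difference above 0 and 14 below, with a median of 0.03, against -0.002 over all tested genes. The medians were 0.07 for sterol enzymes, 0.04 for fatty acid enzymes and -0.06 for the regulators and Stard4.

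In 2i, 26 of the 29 members had a knockdown difference below 0, and 0 passed. The median log2 difference was -0.41, against 0.01 over all tested genes, and 1.27% of all tested genes were called in either direction. At an unadjusted p under 0.05, limma gave 3 members lower and 1 higher, and voom, which also passed 0, gave 4 lower and 1 higher. The share of all tested genes at such a p was 7.37% by limma and 6.47% by voom. With the replicate number as a block, limma gave 8 lower and 1 higher, against 12.59% of all tested genes. A block within each medium gave 7 lower and 1 higher, against 14.3%. With either block, 0 members passed. The knockdown libraries all lay below the controls for 4 members, Acat2, Scd1, Fads2 and Srebf1, against 4.33% of all tested genes. The 2i control libraries of this comparison are also those of the comparison of media in control cells. All 8 fatty acid enzymes and all 4 regulators and carriers had a difference below 0, as did 14 of 17 sterol enzymes.

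Scd2 had the lowest of these differences, with 6403, 3143 and 3811 normalised reads in 2i knockdown cells, against 7908, 12720.3 and 6309.7 in 2i control cells (log2 difference -1.01, SE 0.40, adjusted p = 0.510). Scd1 held 2466, 1289 and 1490.5 normalised reads in 2i knockdown cells, against 2843, 3296 and 3260.5 in 2i control cells (log2 difference -0.88, SE 0.50, adjusted p = 0.790). Srebf1 held 401, 211 and 268 normalised reads in 2i knockdown cells, against 433, 678 and 459 in 2i control cells (log2 difference -0.77, SE 0.29, adjusted p = 0.442). In each of the 3 genes, 2i knockdown 1 was the knockdown library nearest to the controls. Fads2 held 123, 102 and 83.0 normalised reads in 2i knockdown cells, against 270.1, 223 and 153 in 2i control cells (log2 difference -0.83, SE 0.31, adjusted p = 0.434).

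Fasn split the 2i knockdown group, with 3329.6, 661 and 630.5 normalised reads there, against 1779, 2397 and 1176 in 2i control cells (log2 difference -0.59, SE 0.56, adjusted p = 0.894). Its knockdown mean was 0.863 of the control mean, and 0.362 without 2i knockdown 1. Sqle held 1461, 514 and 644 normalised reads in 2i knockdown cells, against 1512, 1246 and 828 in 2i control cells, a ratio of 0.731 that became 0.485 without 2i knockdown 1 (log2 difference -0.53, SE 0.35, adjusted p = 0.833). Lss, which closes the sterol ring, held 613, 270.1 and 155 normalised reads in 2i knockdown cells, against 745, 676 and 364 in 2i control cells, a ratio of 0.581 that became 0.357 without 2i knockdown 1 (log2 difference -0.84, SE 0.40, adjusted p = 0.681). 2i knockdown 1 was the highest of its group for 7 of the 8 fatty acid enzymes and for 6 of the 17 sterol enzymes. For the sterol enzymes, 2i knockdown 3 was the highest more often, for 8 of the 17. 2i knockdown 1 also had the lowest structural RNA share of its group (19.7%), whose part in these values was not tested.

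Idi1, Tm7sf2 and Ebp, an isomerase of the sterol ring, were the members with a difference above 0 in 2i. Idi1 held 2353, 1227 and 1648 normalised reads in 2i knockdown cells, against 1289.8, 874 and 838 in 2i control cells, so that 2i knockdown 2 lay below the highest control (log2 difference 0.75, SE 0.29, adjusted p = 0.473). Its mean was 1743 ± 569 in 2i knockdown cells and 1000.5 ± 251 in 2i control cells (normalised reads, SD, n = 3 each), a 1.74-fold ratio. Tm7sf2 held 80.7, 112 and 136 normalised reads in 2i knockdown cells, against 85.2, 66.2 and 27.0 in 2i control cells (log2 difference 0.65, SE 0.41, adjusted p = 0.821). In 2i knockdown cells the summed reads of 8 fibroblast markers were 130 to 802, against 43.4 to 57.2 in 2i control cells, and 1 of the 3 tested markers rose. Naive marker sums were 5879 to 9118 normalised reads in 2i knockdown cells and 9094 to 13399 in 2i control cells, which overlapped; 0 of 7 passed by limma or voom, with 3 lower at an unadjusted p under 0.05 by each. The part of either in the members' values was not tested.

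**Figure D4:**
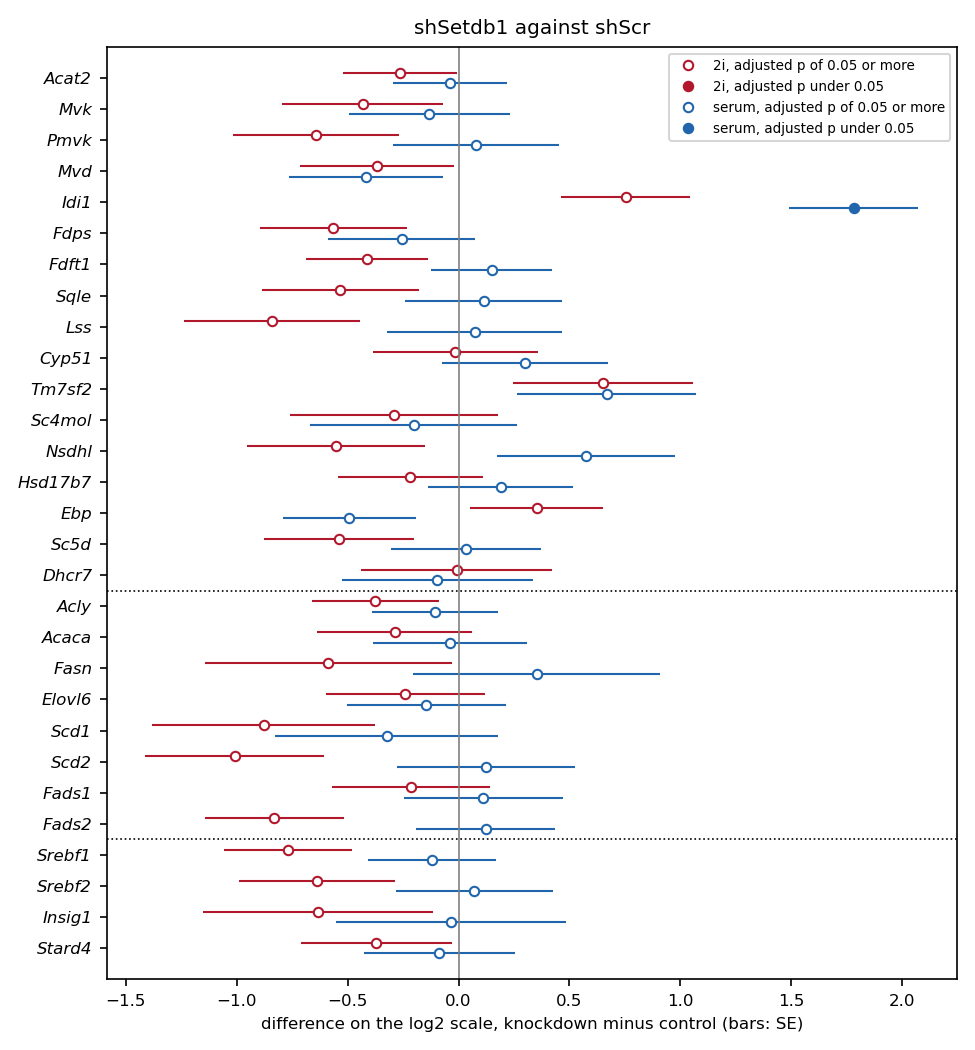
Difference between shSetdb1 and shScr on the log2 scale (x axis; bars are SE) for the 29 members (rows, branches parted by dotted lines), in 2i and in serum; filled points passed at an adjusted p under 0.05. Idi1 in serum is the filled point, the serum points scatter around 0, and 26 of the 29 points for 2i lie left of 0.

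Whether the knockdown differences themselves differed between media was tested as the 2i difference minus the serum difference. No member passed, and 0 of the 14487 tested genes did (0% called, limma; 404 genes at an unadjusted p under 0.05; 0 and 357 by voom). Of the members, 2 had an unadjusted p under 0.05 by limma, both lower, and 1 by voom. The value for Idi1 was -1.03 (SE 0.41, adjusted p = 0.9996), so its rise in serum is not shown to differ from its value in 2i. The member values had a median of -0.41 and 26 of 29 were below 0. Branch medians were -0.31 for sterol enzymes, -0.44 for fatty acid enzymes and -0.62 for the regulators and Stard4.

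Set side by side, the branches had the same order of medians between media. In knockdown cells the median log2 difference between 2i and serum was 0.21 for the 17 sterol enzymes, 0.46 for the 8 fatty acid enzymes and 0.60 for the regulators and Stard4. In control cells the same medians were 0.51, 0.93 and 1.07. Calls in control cells came to 1 of 17 sterol enzymes, 4 of 8 fatty acid enzymes and 1 of 4 regulators and carriers. On the log2 scale the sterol enzymes spanned 0.02 to 1.51 in control cells, a range that holds Fads1 and Fads2 and lies wholly below Scd1 and Scd2. That scale understates genes with few reads, such as Tm7sf2. As ratios of means, Tm7sf2 was 3.735-fold and Nsdhl 3.67-fold higher in 2i, between Fads1 (2.48-fold) and Fads2 (4.11-fold). Acly, Elovl6, Fasn and Acaca, at 0.49, 0.48, 0.37 and -0.28 in control cells, lay below the sterol median of 0.51. No test of one branch against the other was made.

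Levels averaged over a branch, as log2-scale values minus each gene's mean, showed where libraries of 1 group part. The sterol enzymes averaged 0.21, -0.07 and 0.11 in 2i knockdown cells and 0.44, 0.27 and 0.23 in 2i control cells. They averaged -0.39, -0.31 and 0.31 in serum knockdown cells and -0.37, -0.45 and 0.02 in serum control cells. Serum knockdown 3 thus lay above every 2i library except 2i control 1, and serum control 3 lay above 2i knockdown 2. Serum knockdown 3 was the highest of its group for 15 of 17 sterol enzymes. Replicate 3 was also the library richest in structural RNA in each group; its part in these values was not tested. Without it in any group, the sterol median between media in control cells was 0.85, in place of 0.51.

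The fatty acid enzymes averaged 0.74, -0.16 and -0.08 in 2i knockdown cells and 0.80, 0.90 and 0.46 in 2i control cells. In serum knockdown cells they averaged -0.36, -0.47 and -0.48, and in serum control cells -0.44, -0.89 and -0.02. All 2i libraries except 2i knockdown 2 and 3 lay above every serum library, and those lay below serum control 3. Within a group, the highest library exceeded the lowest by a median factor over the 29 members of 1.91 in 2i knockdown, 1.54 in 2i control, 1.89 in serum knockdown and 1.77 in serum control cells. The highest such factor, 8.23, was that of Tm7sf2 in serum knockdown cells, and Scd1 reached 8.05 in serum control cells.

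**Figure D5:**
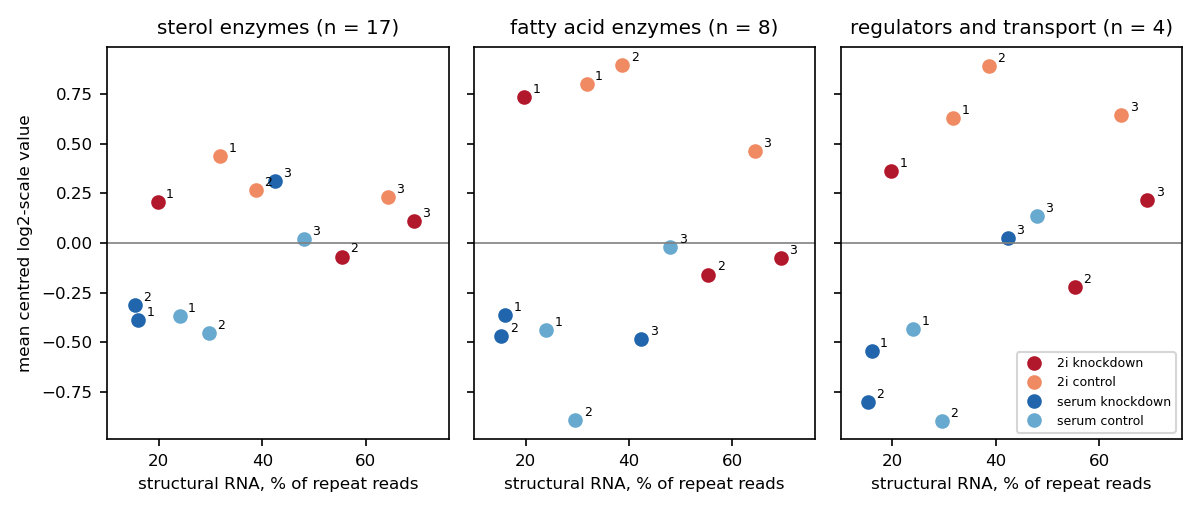
Mean centred log2-scale value of each branch (y axis) against the structural RNA share of repeat reads (x axis, %) in the 12 libraries; colours give the groups and numbers the replicates. Sterol enzymes in replicate 3 of both serum groups sit above replicates 1 and 2, while the fatty acid enzymes are lowest in serum control 2 and highest in 2i control 2.

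The rest of the pathway was followed in 4 further lists. Of all tested genes, limma called 2.15% higher in 2i in knockdown cells and 1.73% in control cells. For the knockdown, it called 1.27% in 2i and 0.649% in serum, in either direction. At an unadjusted p under 0.05, limma gave 18.52% between media in knockdown cells and 17.33% in control cells. For the knockdown it gave 7.37% in 2i and 5.09% in serum. By voom these 4 shares were 15.21, 17.62, 6.47 and 5.25%. Of 18 tested genes for other sterol synthesis and sensing, among them the SREBP escort Scap and Insig2, 0 passed in any comparison by limma or voom. At an unadjusted p under 0.05, both tools gave 2 of them between media in knockdown cells, 1 in each direction, and 2 in control cells, both higher, and 0 for the knockdown in serum, in 2i or for their difference. Of 21 tested genes of sterol uptake and efflux, Npc2 and Soat1 passed between media. Npc2, which hands cholesterol out of lysosomes, was 4.64-fold higher in 2i in knockdown cells (log2 difference 2.05, SE 0.47, adjusted p = 0.0266; 2.89-fold without 2i knockdown 3) and 3.71-fold higher in control cells (log2 difference 1.81, SE 0.47, adjusted p = 0.0473). The call in knockdown cells was lost without serum knockdown 1 or 2 or 2i knockdown 2 or 3 (adjusted p of 0.0689 to 0.156). The call in control cells was lost without any 1 of the control libraries other than serum control 3 (adjusted p of 0.0728 to 0.228) and with no filter on low values (0.0731). Soat1, which stores cholesterol as esters, held 326, 239 and 144 normalised reads in 2i knockdown cells, against 631, 869 and 562 in serum knockdown cells, and fell (log2 difference -1.43, SE 0.35, adjusted p = 0.0341). That call was lost with voom (adjusted p = 0.0858), without replicate 3 of every group (0.0734), and without serum knockdown 1 or 2 or 2i knockdown 2 or 3 (0.0808 to 0.177). In control cells its difference was -1.16 (adjusted p = 0.0802). For the knockdown, 0 genes of this list passed by limma or voom in either medium, with 1 at an unadjusted p under 0.05 in 2i by each tool and 0 in serum.

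Of 35 tested genes of other fatty acid and lipid synthesis, 2 rose in 2i in knockdown cells and 3 in control cells. The shares of all tested genes called higher were 2.15% and 1.73%. Acss1, a mitochondrial acetyl-CoA synthetase, held 724, 1487 and 1451 normalised reads in 2i control cells, against 91.2, 90.6 and 258 in serum control cells, 8.33-fold higher (log2 difference 2.80, SE 0.48, adjusted p = 0.00483; 13.4-fold without serum control 3). In knockdown cells it was 6.79-fold higher (log2 difference 2.29, SE 0.48, adjusted p = 0.0145), a call lost without serum knockdown 1 or 2 or 2i knockdown 2 or 3 (adjusted p of 0.0597 to 0.0838). Me1, the malic enzyme that supplies NADPH, was 3.33-fold higher in knockdown cells (log2 difference 1.55, SE 0.30, adjusted p = 0.00937) and 2.64-fold higher in control cells (log2 difference 1.33, SE 0.30, adjusted p = 0.0228). Its call was lost in knockdown cells without serum knockdown 2 (adjusted p = 0.0662). In control cells it was lost without serum control 2 or 3 or 2i control 2 or 3 (0.0733 to 0.1055) and without replicate 3 of every group (0.1225). Acsl3, which activates fatty acids, was 3.87-fold higher in control cells (log2 difference 1.94, SE 0.40, adjusted p = 0.0134), and had a log2 difference of 1.26 in knockdown cells (adjusted p = 0.0952). The call of Acsl3 was lost without serum control 1 or 2 or 2i control 2 or 3 (adjusted p of 0.0525 to 0.0785). The list's medians were 0.25 in knockdown cells and 0.15 in control cells, below those of the 8 fatty acid enzymes. For the knockdown, 0 genes of this list passed by limma or voom; at an unadjusted p under 0.05 limma gave 3 in 2i and 1 in serum, and voom gave 4 in 2i and 2 in serum.

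Among 19 tested genes of fatty acid oxidation and uptake, Lpl, the lipoprotein lipase that frees fatty acids from lipoproteins, passed in 4 comparisons. It held 1823, 1589 and 1441 normalised reads in 2i knockdown cells, against 189.9, 463 and 347 in 2i control cells. In serum it held 634, 260.2 and 716 normalised reads in knockdown cells, against 34.7, 49.8 and 88.8 in control cells. Neither pair overlapped, and the knockdown mean was 4.85-fold higher in 2i (log2 difference 2.21, SE 0.38, adjusted p = 0.00681) and 9.30-fold higher in serum (log2 difference 2.53, SE 0.38, adjusted p = 0.00421). Lpl was also higher in 2i than in serum, in knockdown cells (log2 difference 1.62, SE 0.38, adjusted p = 0.0295) and in control cells (log2 difference 1.94, SE 0.38, adjusted p = 0.0111). The knockdown call in serum held with each library of its groups left out, and the one in 2i was lost without 2i control 1 (adjusted p = 0.0501). Between media, the call in knockdown cells was lost without serum knockdown 1 or 2 or 2i knockdown 2 or 3 (adjusted p of 0.0529 to 0.171). In control cells it was lost without serum control 1 or 2 or 2i control 2 or 3 (0.0565 to 0.0622). Plin2, a coat protein of lipid droplets, was 3.49-fold higher in 2i in knockdown cells (log2 difference 1.64, SE 0.42, adjusted p = 0.0412; 5.39-fold without serum knockdown 3). That call was lost with voom (adjusted p = 0.0591), with no filter on low values (0.0582), and without serum knockdown 1 or 2 or 2i knockdown 2 or 3 (0.138 to 0.182). No other gene of this list passed in any comparison.

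The genes whose pattern was most like the mean of the sterol enzymes over the 12 libraries were found among 14458 tested genes outside the members. The 10 with the highest Pearson correlation, 0.885 to 0.919, included Galnt2, Kdelr1, Gm20388, Pgm1, Sh3bp1, Chst8, Sfxn3, Commd10 and Myl12b. The highest values were those of Galnt2, a glycosyltransferase (0.919), and Kdelr1, a retrieval receptor of the secretory pathway (0.918). Replicate 3 of each group shares a high structural RNA content, so this is a description of 12 points. The smallest adjusted p (limma) among the 10 in the 4 group comparisons was that of Sfxn3 between media in control cells (log2 difference 1.44, adjusted p = 0.0546).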

How the data were processed

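Directional libraries, 12 in 4 groups of 3, were made from total RNA after removal of ribosomal RNA, per the labels' protocols. Trim Galore 0.3.3, TopHat2 2.0.9, the genome build mm9 and DESeq2 are listed in the submitters' processing notes. How reads were counted, on which annotation and with what use of strand is not given in the sources used here. The authors deposited variance-stabilised values on a log2 scale for 26061 genes and 1217 repeat families. Inverting the transformation gave whole reads for 100% of gene values within 0.01 of a read, and hence the depth, 4821181 to 15509401 gene reads per library. Intervals and floors from reads cover counting error only.

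The test on the deposited log2 values was limma's (version 3.58.1, R 4.3.3): 1 mean per group, 8 residual degrees of freedom, empirical Bayes with a trend, Benjamini-Hochberg adjustment within each comparison and a threshold of 0.05, on the 14487 genes whose mean lay 0.5 or more above the lowest value of the table. The script was tested on simulated data. Log2 differences on this scale understate the change of genes with few reads; folds are ratios of mean normalised reads. Members were matched by symbol, Hacd1, Hacd2, Hacd3 and Hsd17b8 by older symbols. Windows before gene starts were matched by symbol; GRCm38 positions serve only these windows and the order of the genes beside Idi1, since the build of the values is mm9. Python 3.11.15, pandas 2.3.3 and matplotlib 3.10.9 read the tables and drew the figures.

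The members and lists were chosen with earlier results of these data known. All members are described, with values per library for those that passed or that carry the comparison of branches; of the other lists, values are given only for genes that passed, at most 6 a list. A gene among those most like the sterol enzymes is not reported here. Same-numbered knockdown and control libraries in serum deviated together from their group means (correlations of 0.58, 0.23 and 0.51 for replicates 1, 2 and 3), so their numbers were taken to pair them. Counts and the adjusted p of Idi1 with the replicate block are given beside that comparison. The other values of that comparison, those of the fits that leave out libraries among them, come from fits with no block. Alternatives were the block, voom on recovered reads, libraries centred on their median, no filter on low values, each library left out in turn and, added after seeing the data, all groups without replicate 3.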

Additional observations from a re-analysis of the deposited data

How the results depend on the processing

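Scd1 and Scd2 in control cells, 2i against serum, passed under every alternative run. In fits with no block, Scd1 in knockdown cells and Idi1 in serum each lost their call without 1 library. Idi1 also lost it there without replicate 3 of every group (adjusted p = 0.0965). Without replicate 3 of every group Fdft1 (adjusted p = 0.0879) and Srebf1 (0.0675) in control cells also missed the threshold, and with no filter on low values Fads1 did (0.0637). In these fits without replicate 3, Nsdhl (0.0435) and Insig1 (0.0360 in knockdown and 0.00519 in control cells) passed between media; centring the libraries gave Nsdhl 0.0461. No called difference changed sign.

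With the replicate block, genes passing came to 171 for the knockdown in serum, 321 for the knockdown in 2i, 1351 between media in control cells and 1583 in knockdown cells, where 5 members passed: Scd1, Ebp, Scd2, Fads1 and Insig1. Nsdhl (0.0147) and Insig1 (0.0016) then passed in control cells too. A block within each medium gave 425 genes for the knockdown in 2i, 211 in serum and 2 for their difference. Outside the serum knockdown comparison the numbers were not taken to pair the libraries, since replicate 2 did not reach 0.1: same-numbered correlations for replicates 1, 2 and 3 were 0.456, 0.057 and 0.524 for the knockdown in 2i, 0.497, 0.005 and 0.439 between media in knockdown cells and 0.232, -0.177 and 0.219 in control cells. By voom, 108 genes passed for the knockdown in 2i and 250 between media in knockdown cells.

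Without replicate 3 of every group, 56 genes and 0 members passed for the knockdown in serum, 88 genes for the knockdown in 2i, and 2 members between media in knockdown cells. The medians that moved were 0.85 for the sterol enzymes between media in control cells, 0.82 for the fatty acid enzymes in knockdown cells and -0.83 for the fatty acid enzymes in the difference of the knockdown changes. The cause was not tested.

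Leaving out each library in turn, genes passing ranged over 37 to 69 for the knockdown in serum, 99 to 247 for the knockdown in 2i, 171 to 461 between media in control cells, 144 to 1514 in knockdown cells and 0 to 1 for the difference. Members passing ranged over 0 to 1 for the knockdown in serum, 2 to 7 between media in control cells and 0 to 2 in knockdown cells. The sterol median ranged over 0.46 to 0.76 between media in control cells and -0.63 to -0.17 for the difference. With 3 libraries a group and 1 library of 4821181 reads, differences of the size of the within-group spread could not be resolved.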

Other observations

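Idi2, a paralogue of Idi1, was looked at after its values were seen. RefSeq on GRCm38 places Rpl10a-ps2 and Gm9745 between the pair. Rpl10a-ps2 had 4, 13 and 8 reads in 2i knockdown cells, against 0, 6 and 1 in 2i control cells. In serum it had 0, 2 and 4 reads in knockdown cells, against 0 in each control library. Gm9745 had 1 read, in 2i knockdown 1, and neither gene passed the filter on low values. Idi2 had 0 reads in all 6 control libraries. It had 10, 7 and 30 reads in 2i knockdown cells and 9, 8 and 18 reads in serum knockdown cells. Against a floor of 3 reads over a control group, its mean normalised level was at least 40.0-fold higher in 2i knockdown cells, at least 9.09-fold without 2i knockdown 3, at least 25.0-fold without 2i control 1 and at least 24.3-fold without 2i control 2. In serum knockdown cells it was at least 10.2-fold higher, at least 6.75-fold without serum knockdown 3 and at least 6.36-fold without serum control 2. Neither difference passed in the fit across all genes (limma adjusted p = 0.145 in 2i and 0.834 in serum), and the bounds cover counting error only. Wdr37, the neighbour on the other side of Idi1, held 689, 564 and 603 normalised reads in 2i knockdown cells, against 553, 501 and 477 in 2i control cells. In serum it held 939, 644 and 818 normalised reads in knockdown cells, against 663, 658 and 646 in control cells. Its log2 differences were 0.26 in both media (limma adjusted p = 0.894 in 2i and 1 in serum).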
